A study of Mus musculus with 5 samples.

Results

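GABA-A receptors are chloride channels opened by the inhibitory transmitter GABA, and each is assembled from several subunits of a large family. The alpha subunit sets much of a receptor's pharmacology and location, beta subunits form the transmitter binding site together with alpha, and delta replaces gamma in some receptors outside the synapse. In the hippocampus, alpha4 and delta are typical of dentate granule cells and alpha5 of pyramidal cells, where these subunits carry tonic inhibition, while alpha2 is found at synapses, including those on the axon initial segment. Here 7 subunit genes were followed through a seizure time course, namely Gabra2, Gabra3, Gabra4, Gabra5, Gabrb1, Gabrb2 and Gabrd. They were taken by gene symbol, and all 7 were found among the 55385 genes counted.

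The RNA came from hippocampi of male C57/bl6 mice aged 3 months. Seizures were provoked by an intraperitoneal dose of kainic acid (20 mg/kg), a glutamate receptor agonist, and mice were killed 1, 4 or 8 h from the first seizures. The control was untreated, so an effect of the injection itself cannot be told apart from that of the seizures. There was 1 library each for the control, 1 h and 8 h and 2 libraries for 4 h, numbered 1 and 2 in the labels. The labels do not say whether these come from different animals, so p-values measure only the spread between these 2 libraries. This spread may not be that between animals. The pair differed at least 2-fold in 1984 of the genes tested. The untreated library held 19100374 reads counted on genes, the 1-hour library 17744508, 4-hour library 1 had 18250114, 4-hour library 2 had 19109204 and the 8-hour library 16612225. Levels are given as normalized CPM, which are counts scaled to the size of each library (CPM) and to its composition (TMM), with exact Poisson 95% intervals that cover counting error only.

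The time labels were checked with 8 immediate early genes, which neurons switch on within minutes of strong activity. Their summed level was 257 normalized CPM in the untreated library, 5678 in the 1-hour library, 3923 in 4-hour library 1, 1171 in 4-hour library 2 and 243 in the 8-hour library. Arc, the most abundant of them, had 148, 2022, 2593, 928 and 152 normalized CPM in the same order. Fos had 10.8, 999, 519, 70.4 and 17.2, and Npas4 had 3.92, 694, 130, 4.92 and 5.13 normalized CPM. All of these were highest at 1 h except Arc. Fosb had 3.52, 372, 238, 60.2 and 9.75, Junb 26.3, 558, 161, 38.0 and 17.6, and Nr4a1 33.8, 605, 163, 34.6 and 21.5. Egr1 had 29.1, 215, 99.1, 30.9 and 19.1 and Egr2 had 2.41, 212, 19.8, 3.91 and 1.20 normalized CPM. The 1 h library was thus above the control for all 8 genes, and 4-hour library 1 was above 4-hour library 2 for all 8.

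The 4-hour library 1 stood apart from the other libraries in markers of neighbouring tissue. The 4 choroid plexus markers summed to 3957 normalized CPM in the control, 1672 at 1 h, 28.8 in 4-hour library 1, 4233 in 4-hour library 2 and 3069 at 8 h, mostly from Ttr with 3747, 1573, 16.3, 3971 and 2884. The summed level of 4 thalamic markers was 63.0 normalized CPM in the untreated library, 63.2 in the 1-hour library, 305 in 4-hour library 1, 128 in 4-hour library 2 and 51.9 in the 8-hour library. All 4 had counts in every library, and the most abundant by its mean over the libraries, Prkcd, had 27.0, 29.1, 199, 79.0 and 23.8 normalized CPM. The thalamic sum was thus highest in 4-hour library 1 and also above the control in 4-hour library 2.

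Gabra4, which encodes the alpha4 subunit, was about as abundant at 1 h and 8 h as in the control and higher in both 4-hour libraries. It had 102 normalized CPM (95% interval 97.2 to 106) in the untreated library, 109 (104 to 114) in the 1-hour library, 219 (212 to 226) in 4-hour library 1, 198 (191 to 204) in 4-hour library 2 and 101 (96.0 to 105) in the 8-hour library. The ratio to the control was 2.16 in 4-hour library 1 and 1.95 in 4-hour library 2. These libraries differed by 0.15 on the log2 scale, less than either differed from the control. The thalamic sum was also higher in both 4-hour libraries, as were 3 of its 4 genes, while Lef1 was above the control in 4-hour library 1 and had 61 counts in 4-hour library 2 against 70 in the control. Of the 5 granule cell markers, 4 were below the control at 4 h. The other, Prox1, was above it, with a log2 fold change of 1.28. It had 60.0 normalized CPM in the control, 172 in 4-hour library 1 and 120 in 4-hour library 2. Of all genes tested, 50.8% had a log2 fold change above 0 at 4 h. The part of the thalamic or granule cell markers in this result, as in those of Gabra2 and Gabrd, was not tested. In bulk tissue, more or fewer cells of a type and more or less RNA per cell cannot be told apart.

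The fitted log2 fold change of Gabra4 at 4 h versus control was 1.04 (SE 0.18), with an unadjusted p of 0.00151 and a BH-adjusted p of 0.252 in edgeR. The difference thus missed the threshold of 0.05 over all 19768 genes tested. Its value was 0.96 without 4-hour library 1 and 1.11 without 4-hour library 2. DESeq2 gave 1.04 (SE 0.30) with an adjusted p of 0.0289, where 12 alternative settings of edgeR, DESeq2 and limma spanned adjusted p-values of 7.16e-05 to 0.327. The low end of this range is the edgeR fit without a filter on low counts. Between 1 h and 4 h the log2 fold change was 0.94 (SE 0.17, adjusted p = 0.403 in edgeR), and between 4 h and 8 h it was -1.05 (SE 0.18, adjusted p = 0.463). For the last of these DESeq2 gave an adjusted p of 0.0430, within a range of 4.78e-05 to 0.542 over the 12 settings.

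Gabra4 lies beside Gabrb1, which encodes the beta1 subunit, in a cluster of receptor genes on chromosome 5 of GRCm38. Gabra4 (ENSMUSG00000029211.11, chr5:71569749-71658308, minus strand) and Gabrb1 (ENSMUSG00000029212.11, chr5:71658113-72149037, plus strand) point away from each other, and their annotated spans overlap by 196 bp at their 5′ ends. Exons of the opposite gene cover 46 bp of either, which is 0.756% of the exon length of Gabra4. As the strand setting of the counting is not given in the sources used here, reads on these 46 bp cannot be assigned with certainty. Gabra2 (ENSMUSG00000000560.9, chr5:70957597-71095849, minus strand) belongs to the same cluster.

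The promoter windows of these neighbours, from 250 bases before to 50 after a RefSeq gene start, are shown because these members share a locus. Gabrb1 has 2 windows in the table, of which the one beside Gabra4 is given. It ends at 71657970, before the start of the annotated span of Gabrb1 given above (71658113). RefSeq and that annotation thus place this gene start differently. Capitals mark matches to the SP1 motif GGGCGG on either strand.
Gabra4 (GRCm38.p6, chr5:71658259-71658558, minus strand): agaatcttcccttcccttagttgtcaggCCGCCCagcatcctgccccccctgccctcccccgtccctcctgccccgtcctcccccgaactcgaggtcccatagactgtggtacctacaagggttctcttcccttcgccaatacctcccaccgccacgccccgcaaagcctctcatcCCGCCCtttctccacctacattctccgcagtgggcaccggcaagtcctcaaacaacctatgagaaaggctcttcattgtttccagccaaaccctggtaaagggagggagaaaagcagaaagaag
Gabrb1 (GRCm38.p6, chr5:71657671-71657970, plus strand): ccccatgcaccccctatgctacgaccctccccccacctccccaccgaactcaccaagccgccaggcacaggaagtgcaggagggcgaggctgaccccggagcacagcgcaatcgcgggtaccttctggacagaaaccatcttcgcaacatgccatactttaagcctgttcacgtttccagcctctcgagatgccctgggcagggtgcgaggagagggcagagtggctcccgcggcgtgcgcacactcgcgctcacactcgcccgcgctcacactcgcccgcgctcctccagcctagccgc
Gabra2 (GRCm38.p6, chr5:71095800-71096099, minus strand): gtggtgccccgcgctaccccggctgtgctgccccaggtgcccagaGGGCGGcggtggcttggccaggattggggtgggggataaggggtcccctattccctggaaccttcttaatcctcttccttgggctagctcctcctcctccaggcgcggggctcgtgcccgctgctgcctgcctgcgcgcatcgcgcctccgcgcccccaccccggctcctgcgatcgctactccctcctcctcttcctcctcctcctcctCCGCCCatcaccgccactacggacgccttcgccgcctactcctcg
The Gabra4 window held 2 SP1 matches, that of Gabra2 held 2, both of Gabrb1 held 0, and 1 of the 3 windows of Gabrb2 held 1. The windows of Gabra3 and Gabra5 held 0, so that 3 of the 10 member windows held a match. SP1 letters occurred in 35.7% of the 32851 promoter windows of the table. The windows were also searched on both strands for the CRE (TGACGTCA), the AP-1 motif (TGANTCA), the EGR motif (GCGTGGG) and the E-box (CACGTG). None of these 4 motifs was found in the 10 windows of the 6 members Gabra2, Gabra3, Gabra4, Gabra5, Gabrb1 and Gabrb2, and they occurred in 1.79%, 7.81%, 5.04% and 7.15% of all windows.

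Gabrb1 lay within a range of 0.26 on the log2 scale over the 5 libraries, the narrowest of the 7 members. It had 207 normalized CPM (201 to 214) in the untreated library, 189 (183 to 196) in the 1-hour library, 191 (184 to 198) in 4-hour library 1, 181 (175 to 187) in 4-hour library 2 and 217 (210 to 224) in the 8-hour library. The fit put it -0.13 (SE 0.18) from the control on the log2 scale for the 1-hour library, -0.16 (SE 0.16) for the 4-hour pair and 0.07 (SE 0.18) for the 8-hour library, with edgeR's adjusted p = 1, 0.724 and 1.00. Each of these 3 differences was within 1 SE.

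The ratio of the counts of the neighbouring genes within a library needs no scaling between libraries. There were 0.490 Gabra4 reads per Gabrb1 read in the untreated library (exact binomial 95% interval 0.465 to 0.517), 0.575 in the 1-hour library (0.543 to 0.608), 1.15 in 4-hour library 1 (1.09 to 1.20), 1.09 in 4-hour library 2 (1.04 to 1.14) and 0.463 in the 8-hour library (0.438 to 0.490). The intervals of both 4-hour libraries lay above those of the other 3 libraries and overlapped each other. For Gabra2 over Gabrb1 the ratio was 0.914 (0.869 to 0.961) in 4-hour library 1 and 0.457 (0.431 to 0.486) in 4-hour library 2, also above the intervals of the other 3, which reached at most 0.420. None of these intervals is a test of the time points.

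**Figure D1:**
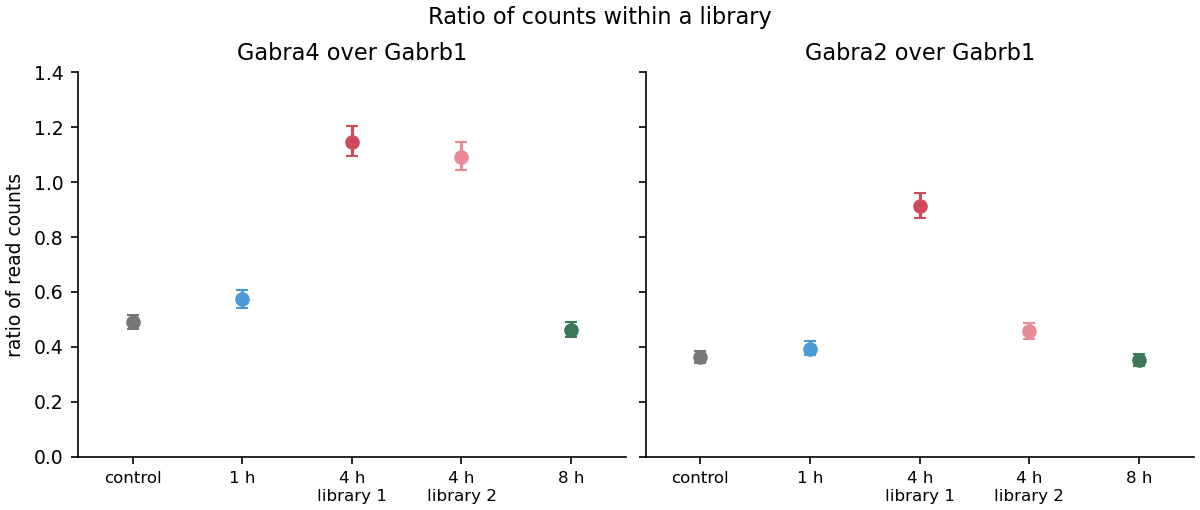
Ratio of read counts within each library (y axis) for Gabra4 over Gabrb1 (left) and Gabra2 over Gabrb1 (right), by library (x axis), with exact binomial 95% intervals as bars. Gabra4 over Gabrb1 was 1.15 and 1.09 in both 4-hour libraries and at most 0.575 elsewhere, while Gabra2 over Gabrb1 was 0.914 in 4-hour library 1 and 0.457 in 4-hour library 2.

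Gabra2, the gene of the alpha2 subunit, was highest in 4-hour library 1 and a little above the other 3 libraries in 4-hour library 2. It had 75.1 normalized CPM (71.3 to 79.0) in the untreated library, 74.6 (70.6 to 78.7) in the 1-hour library, 175 (168 to 181) in 4-hour library 1, 82.8 (78.7 to 87.0) in 4-hour library 2 and 76.2 (72.1 to 80.4) in the 8-hour library. The 4-hour library 1 stood at 2.33 times the control and 4-hour library 2 at 1.10 times. For the 4-hour pair the log2 fold change was 0.78 (SE 0.44, adjusted p = 0.551 in edgeR), and it was 1.22 without 4-hour library 2 and 0.14 without 4-hour library 1. Most of its size therefore rests on 4-hour library 1. Without a filter on low counts edgeR gave an adjusted p of 0.0124 at 4 h versus control, the lowest of 12 settings that reached up to 0.664.

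Gabrd encodes the delta subunit, which partners alpha4 in granule cells. It was the member with the widest range over the libraries, 1.41 on the log2 scale with 0.5 added to each normalized CPM, and the 4-hour libraries lay on opposite sides of the control. It had 20.7 normalized CPM (18.7 to 22.8) in the untreated library, 19.5 (17.4 to 21.6) in the 1-hour library, 34.2 (31.5 to 37.1) in 4-hour library 1, 12.5 (11.0 to 14.2) in 4-hour library 2 and 14.2 (12.5 to 16.1) in the 8-hour library. Together the pair gave a log2 fold change of 0.17 (SE 0.58, adjusted p = 0.928 in edgeR), which was 0.73 without 4-hour library 2 and -0.72 without 4-hour library 1. The 4-hour library 1, the highest library, exceeded 4-hour library 2, the lowest, by 1.44 on the log2 scale when 0.1 was added instead, a larger gap than that of 95.6% of all genes tested, whose SD was 0.66. For Gabra2 the same gap was 1.08, larger than that of 91.3% of the genes.

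**Figure D2:**
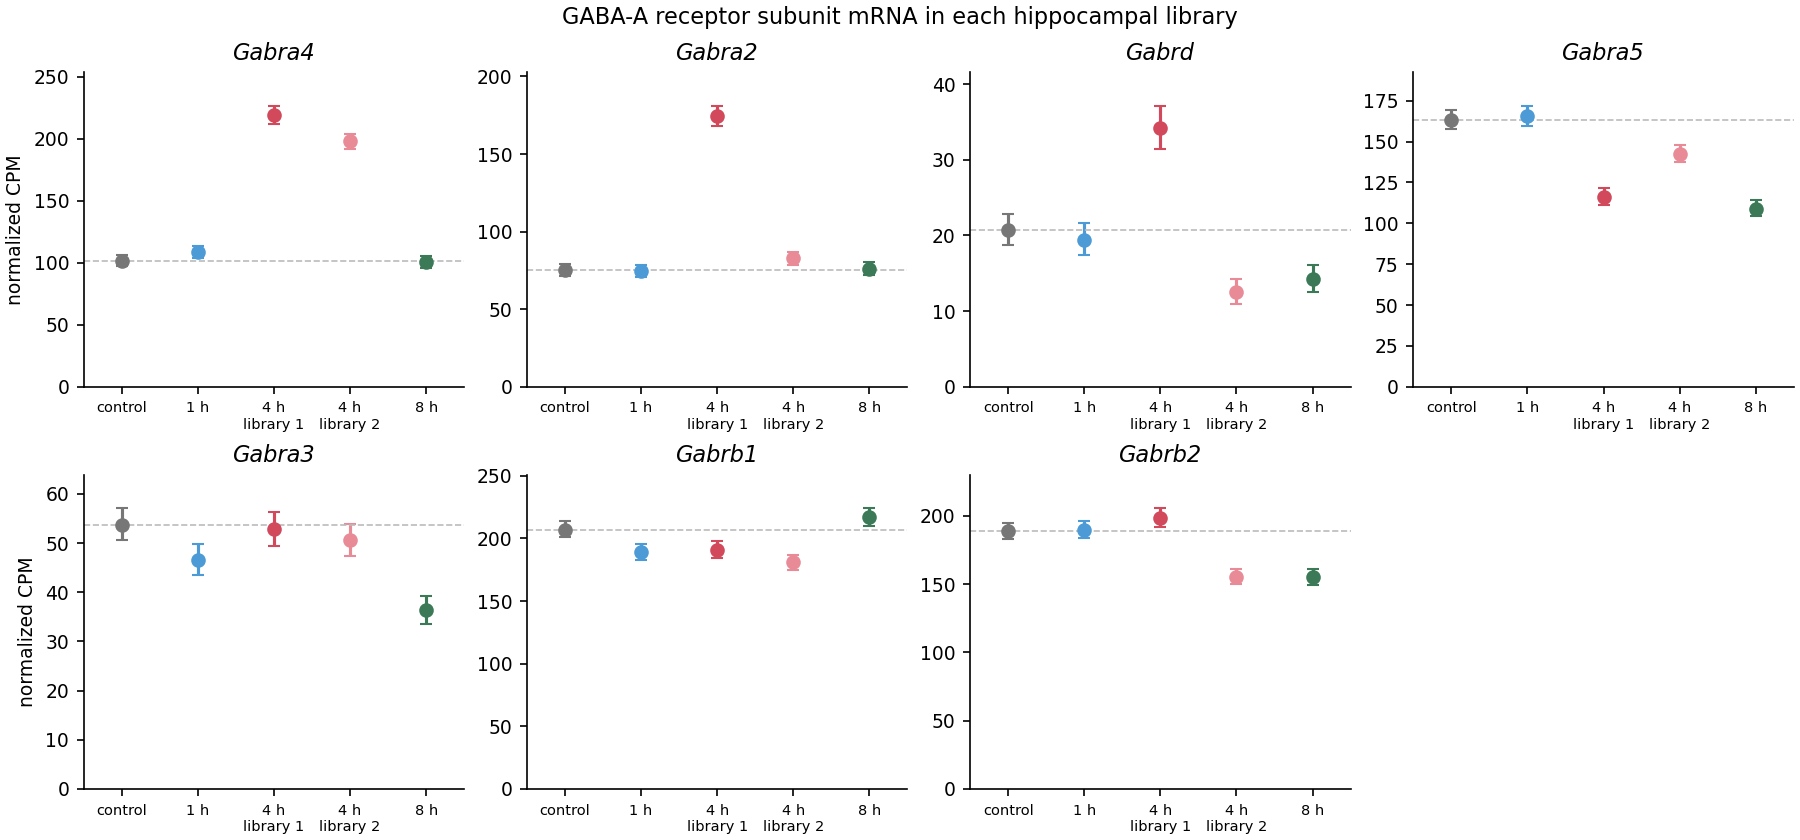
Normalized CPM (y axis) of the 7 subunit genes in each library (x axis), with exact Poisson 95% intervals as bars and the control level as a dashed line. Gabra4 was high in both 4-hour libraries (219 and 198), whereas Gabra2 (175 and 82.8) and Gabrd (34.2 and 12.5) were far higher in 4-hour library 1 than in 4-hour library 2.

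The 5 genes whose centred log2 profile over the 5 libraries lay nearest to that of Gabrd, among 11882 genes with a mean of at least 5 normalized CPM, were AI504432, Adcy8, Ralgapa2, Hecw1 and Car10. Their Euclidean distances were 0.35, 0.35, 0.35, 0.39 and 0.40. Adcy8, a calcium-stimulated adenylyl cyclase, had 34.0 normalized CPM in the control, 61.3 in 4-hour library 1 and 27.2 in 4-hour library 2.

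Gabra5 and Gabra3 were lowest at 8 h. Gabra5, the alpha5 gene, had 163 normalized CPM (158 to 169) in the untreated library, 166 (160 to 172) in the 1-hour library, 116 (111 to 121) in 4-hour library 1, 143 (137 to 148) in 4-hour library 2 and 109 (104 to 114) in the 8-hour library. Both 4-hour libraries and the 8 h library thus lay below the control and 1 h libraries. The sum of 4 CA1 pyramidal markers was likewise lower in these 3 libraries, with 403 normalized CPM in the control, 375 at 1 h, 291 in 4-hour library 1, 331 in 4-hour library 2 and 318 at 8 h, and all 4 had log2 fold changes below 0 at 4 h and 8 h. The part of these markers in the values of Gabra5 was not tested. Against the control the 4-hour pair had a log2 fold change of -0.34 (SE 0.19, adjusted p = 0.546 in edgeR), which was -0.19 without 4-hour library 1 and -0.49 without 4-hour library 2. For the 8-hour library it was -0.58 (SE 0.22), with an unadjusted p of 0.0436 and an adjusted p of 1.00 in edgeR. A predicted gene on the opposite strand, Gm9962, covers 148 bp (4.98%) of the exons of Gabra5.

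Gabra3, the alpha3 gene on chromosome X, had 53.8 normalized CPM (50.6 to 57.1) in the untreated library, 46.6 (43.5 to 49.9) in the 1-hour library, 52.8 (49.4 to 56.4) in 4-hour library 1, 50.6 (47.5 to 53.9) in 4-hour library 2 and 36.4 (33.6 to 39.3) in the 8-hour library. The counting interval of the 8-hour library lay below those of the other 4. There the log2 fold change was -0.56 (SE 0.21), with an unadjusted p of 0.0425 and an adjusted p of 1.00 in edgeR. With 1 library at 8 h, no replicate bears on these values.

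Gabrb2, the beta2 gene, had 189 normalized CPM (183 to 195) in the untreated library, 190 (184 to 196) in the 1-hour library, 199 (192 to 206) in 4-hour library 1, 155 (150 to 161) in 4-hour library 2 and 155 (150 to 161) in the 8-hour library. The 4-hour library 2 and the 8 h library were low and 4-hour library 1 was close to the control. Its log2 fold change was -0.09 (SE 0.20, adjusted p = 0.882 in edgeR) for the 4-hour pair, -0.28 without 4-hour library 1 and 0.08 without 4-hour library 2, and -0.28 (SE 0.24, adjusted p = 1.00 in edgeR) for the 8-hour library.

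**Figure D3:**
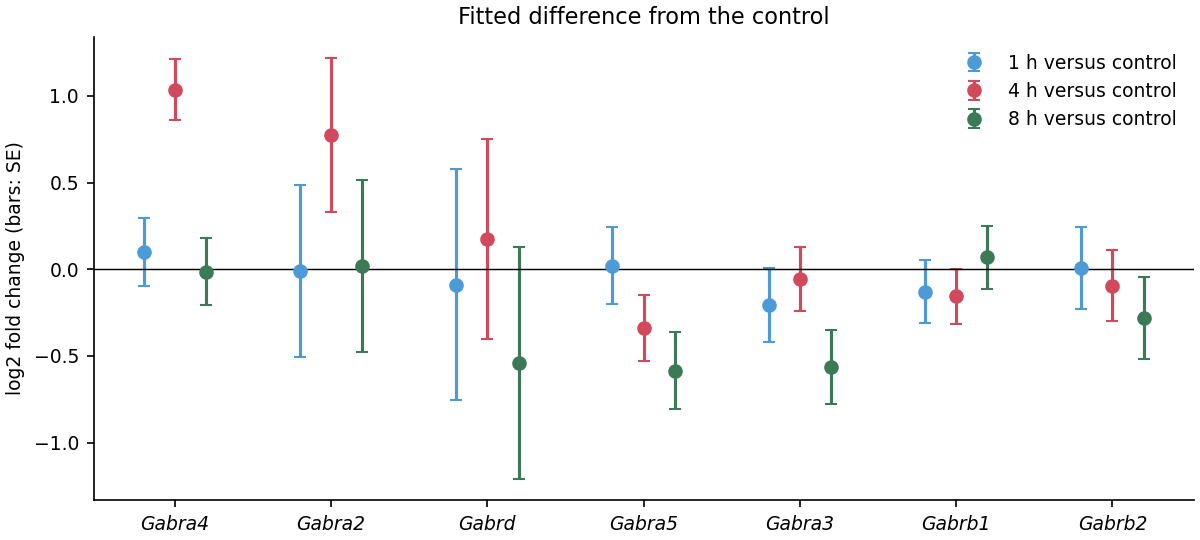
Fitted log2 fold change from the control (y axis) of each subunit gene (x axis) at 1, 4 and 8 h, with bars of 1 SE from the edgeR fit. Gabra4 at 4 h was at 1.04 (SE 0.18), and the SE of Gabra2 (0.44) and Gabrd (0.58) at 4 h was wider.

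Over the whole list, edgeR called 0 of the 7 members in any comparison at an adjusted p under 0.05, beside 0% of all genes at 1 h, 0.00506% at 4 h and 0% at 8 h versus control, 0.00506% for 4 h versus 1 h, 0% for 8 h versus 4 h and 0.0101% in the joint test of all times. The called genes were ETV3L in the comparisons of 4 h with the control and with 1 h, and ETV3L and Cenpa in the joint test, each chosen after its values were seen. At an unadjusted p under 0.05 there were 0 members at 1 h against 2.42% of all genes, 1 (Gabra4) at 4 h against 11.6% and 2 (Gabra3 and Gabra5) at 8 h against 4.51%. The same count was 1 (Gabra4) for 4 h versus 1 h against 7.94%, 2 (Gabra3 and Gabra4) for 8 h versus 4 h against 8.73%, and 1 (Gabra4) in the joint test against 8.33%.

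DESeq2 called 1 member, Gabra4, at 4 h (beside 1.70% of genes), for 8 h versus 4 h (0.920%) and in the joint test (2.10%). It called 0 members at 1 h (0.449% of genes), at 8 h (0.235%) and for 4 h versus 1 h (0.823%). Without a filter on low counts edgeR called 2 members (Gabra2 and Gabra4) at 4 h versus control, 4 h versus 1 h and 8 h versus 4 h, beside 3.97%, 2.21% and 2.92% of genes. limma-voom called 0 genes in each comparison. Both libraries at 4 h lay above the other 3 for 2 members, Gabra4 and Gabra2, a pattern shared by 17.9% of all genes tested, and below them for 0 members, beside 17.3%. The members' median log2 fold change was -0.01 for the 1-hour library, -0.06 for the 4-hour pair and -0.28 for the 8-hour library, beside -0.01, 0.01 and 0.01 over all genes tested.

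The make-up of the 7 subunits was compared within libraries per kb of exon. On this scale Gabra5 held the largest share in all 5 libraries, with 37.4% in the untreated, 38.3% in the 1-hour library, 23.2% in 4-hour library 1, 32.8% in 4-hour library 2 and 31.2% in the 8-hour library. Gabra4 held 11.4%, 12.3%, 21.4%, 22.3% and 14.1% in the same order. At 4 h Gabra4 therefore held a larger share than Gabrb2, which had 20.2% in the control but 18.6% and 16.7% at 4 h. Of the raw reads, with no regard to length, Gabra5 was first in no library and held 20.2% in the control, 20.9% at 1 h, 11.8% in 4-hour library 1, 17.3% in 4-hour library 2 and 15.4% at 8 h. Gabrb1 held 25.5% of them in the control and 30.6% at 8 h. Gabra4 held 12.5% in the control (exact binomial 95% interval 12.0 to 13.1), 22.2% in 4-hour library 1 (21.6 to 22.9) and 24.0% in 4-hour library 2 (23.4 to 24.7). The length used is that of all annotated exons, which may be longer than the transcripts in use.

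**Figure D4:**
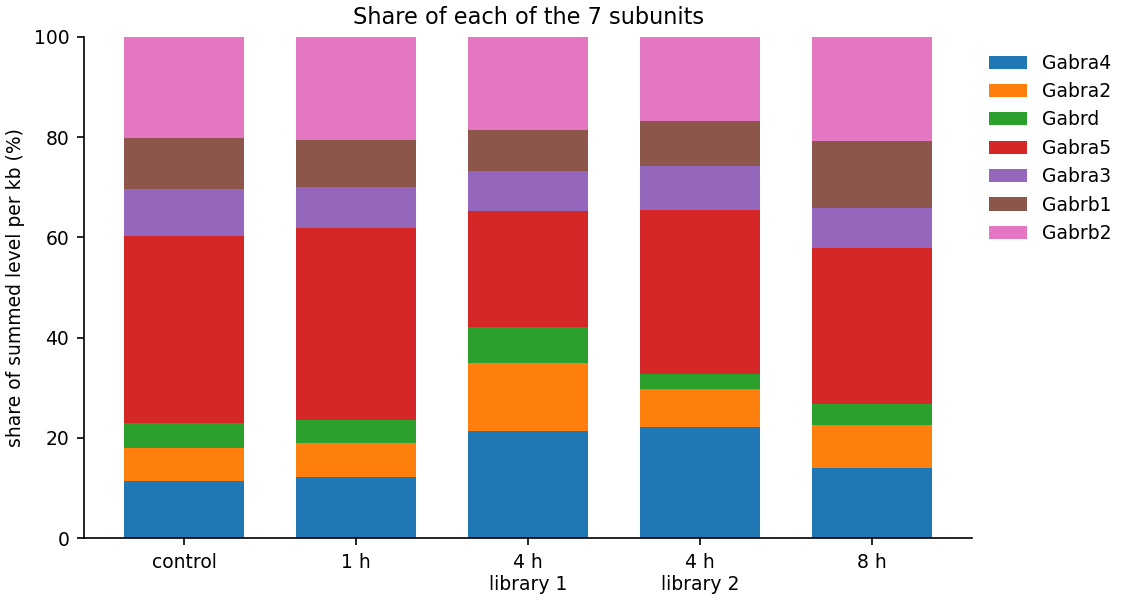
Share of each of the 7 subunit genes in their summed level per kb of exon (y axis, percent) in each library (x axis). The share of Gabra4 was 21.4% and 22.3% in both 4-hour libraries and between 11.4% and 14.1% in the other libraries.

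Per kb of exon, the members in the control ranged from Gabra5 with 55.0 normalized CPM through Gabrb2 (29.7), Gabra4 (16.7), Gabrb1 (15.0), Gabra3 (13.7) and Gabra2 (9.83) to Gabrd (7.20). Among other subunit genes of the family, Gabrg1 had between 20.3 and 28.6 normalized CPM over the 5 libraries, Gabrg3 between 24.2 and 30.5, Gabrr2 between 1.16 and 1.60 and Gabrq between 0.342 and 0.854. Gabra6, Gabre, Gabrp, Gabrr1 and Gabrr3 had at most 6 counts in a library and did not pass the filter.

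Of 18 genes that anchor, assemble or traffic the receptor, edgeR called 0 in each comparison, while DESeq2 called 1 lower at 8 h, Hap1 (log2 fold change -1.47 with either tool, adjusted p = 0.756 in edgeR), beside 0.235% of all genes that DESeq2 called there. At an unadjusted p under 0.05 edgeR had 1 of the 18 at 1 h, 3 at 4 h and 1 at 8 h versus control, beside 2.42%, 11.6% and 4.51% of all genes. At 4 h versus control the genes with the lowest log2 fold changes were Shisa7, an auxiliary subunit of the receptor, at -0.86 (SE 0.21), Hap1 at -0.74 (SE 0.19) and Arfgef2 at -0.32 (SE 0.19). Shisa7 had 49.5 normalized CPM in the untreated library, 42.2 in the 1-hour library, 24.9 in 4-hour library 1, 29.5 in 4-hour library 2 and 49.6 in the 8-hour library, so that both 4-hour libraries lay below the other libraries. Hap1, a trafficking adaptor, had 117, 75.7, 63.7, 76.2 and 42.2. The highest were Plcl1 at 0.63 (SE 0.18), Ubqln1 at 0.33 (SE 0.17) and Zdhhc3, a palmitoyl transferase, at 0.32 (SE 0.18). The adjusted p of these 6 genes lay between 0.310 and 0.566 in edgeR, and the list's median was 0.05.

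Among 10 genes of GABA synthesis, transport and chloride balance, edgeR and DESeq2 called 0 in each comparison, with 0, 2 and 0 genes at an unadjusted p under 0.05 in edgeR at 1 h, 4 h and 8 h versus control, beside the same 2.42%, 11.6% and 4.51% of all genes. Gad1 and Gad2, which encode the enzymes that make GABA, had the highest log2 fold changes at 4 h, 0.80 (SE 0.23) and 0.58 (SE 0.16), with adjusted p = 0.352 and 0.350 in edgeR. Gad1 had 256 normalized CPM in the untreated library, 317 in the 1-hour library, 515 in 4-hour library 1, 379 in 4-hour library 2 and 274 in the 8-hour library, and Gad2 had 103, 104, 150, 155 and 110. Both 4-hour libraries thus lay above the other 3 libraries for either gene. The thalamic sum was also higher there, with 305 in 4-hour library 1 and 128 in 4-hour library 2 against 63.0 normalized CPM in the control. Its part in the values of Gad1 and Gad2 was not tested. Gabbr1, a GABA-B receptor gene, followed at 0.18 (SE 0.16). The lowest were Slc12a5, the neuronal chloride exporter, at -0.25 (SE 0.16), Gabbr2 at -0.16 (SE 0.16) and Abat, which breaks down GABA, at -0.07 (SE 0.16). The list's median at 4 h was 0.11.

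The 5 granule cell markers summed to 329, 330, 307, 252 and 308 normalized CPM in the control, the 1-hour library, 4-hour library 1, 4-hour library 2 and the 8-hour library. Prox1, the most abundant by its mean over the 5 libraries but not in the control and 1-hour libraries, where Calb1 was, had 60.0, 67.2, 172, 120 and 77.1 normalized CPM. The other 4, given after their values were seen, were below the control in both 4-hour libraries. Dsp had 72.2, 66.1, 4.34, 13.6 and 68.5 normalized CPM, C1ql2 29.3, 27.9, 11.0, 11.7 and 58.1, Stxbp6 65.3, 69.0, 30.9, 34.1 and 44.0, and Calb1 102, 100.1, 89.2, 72.5 and 60.7. The list's log2 fold changes at 4 h ranged from -2.99 for Dsp to 1.28 for Prox1, with 1 above 0 and 4 below, so that its sum hides values on both sides of the control. edgeR called 0 of the 5 at 4 h, with 4 at an unadjusted p under 0.05, while DESeq2 called Prox1 higher and C1ql2 lower, beside 11.6% of all genes at that unadjusted p and 1.70% called by DESeq2.

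Of the CA1 markers, Mpped1, the most abundant, had 166, 159, 128, 133 and 122, and the sums of 4 CA3 markers were 141, 154, 128, 149 and 135, led by Cpne4 with 87.2, 89.3, 72.1, 80.6 and 70.5.

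Excitatory neuron markers (4 genes) summed to 2291, 2260, 1829, 2069 and 2114 and were led by Camk2a with 1436, 1435, 1218, 1348 and 1294. Neurod6 of this list, chosen after its values were seen, had 144, 145, 60.9, 67.1 and 104 and was called lower at 4 h by DESeq2 but not by edgeR. Neurod2, also chosen after its values were seen, had 71.0, 67.1, 43.4, 76.4 and 140. It thus lay above the control in 4-hour library 2 and in the 8-hour library. Interneuron markers (7 genes) summed to 522, 578, 852, 705 and 524, led by Gad1 (values with those of GABA synthesis). Apart from Gad1 and Gad2, the log2 fold changes of this list at 4 h lay between -0.08 for Lhx6 and 0.19 for Sst, both given after their values were seen. Astrocyte markers (5 genes) summed to 1117, 1190, 1714, 1557 and 1455, of which Slc1a3, the most abundant by its mean, had 509, 537, 625, 590 and 579. Much of the difference in this sum came from Gfap with 221, 272, 596, 510 and 587, which DESeq2, but not edgeR, called higher at 4 h and 8 h, while Gja1 had 195, 175, 194, 202 and 98.6. Gfap and Gja1 were chosen after their values were seen. The lists of neurons and astrocytes thus were detected in every library, as were those of granule, CA1 and CA3 cells. Oligodendrocyte markers (4 genes) summed to 2581, 3156, 2980, 3807 and 2377, led by Mbp with 1425, 1699, 1536, 1959 and 1348. Microglia markers (4 genes) summed to 165, 167, 133, 140 and 149, led by Csf1r with 85.0, 86.5, 82.3, 82.1 and 74.4, and endothelial markers (4 genes) to 84.9, 82.7, 128, 88.4 and 103, led by Flt1 with 40.1, 45.1, 70.2, 38.5 and 36.9. The 4 cerebellar markers summed to between 12.1 and 16.2, with Pax6 (between 6.38 and 7.88) the most abundant by its mean over the libraries and Cbln1 above it in the control, the 1-hour library and 4-hour library 1, and Gabra6 among them had 0 counts in 4-hour library 2 and at most 6 elsewhere.

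**Figure D5:**
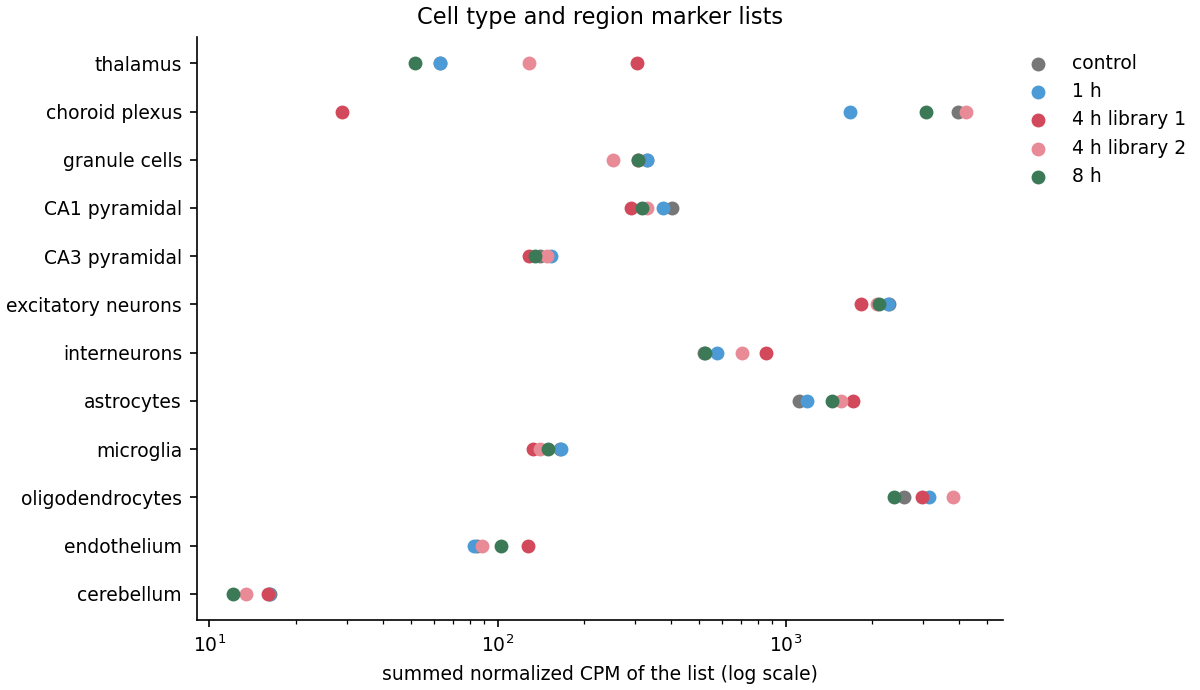
Summed normalized CPM of 12 marker lists (x axis, log scale), 1 point per library, with lists on the y axis. The thalamic sum was 305 and 128 in 4-hour library 1 and 4-hour library 2 against at most 63.2 in the other libraries, and the choroid plexus sum of 4-hour library 1 was 28.8.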

How the data were processed

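Per the labels and the methods of the study, total RNA was made into stranded libraries and sequenced as paired-end reads, and the submitters' processing notes name STAR 2.5.1b, HTSeq and GRCm38.p4. No source used here states the strand setting, the HTSeq version or the release of the annotation. The authors deposited raw counts per gene, without normalization. Reads on no gene (24.7% to 33.1% of all reads) stayed out of library sizes and tests. Gene positions and exon lengths are from GENCODE M21 (GRCm38) and promoters from RefSeq (GRCm38.p6).

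The fit used edgeR 4.0.16 under R 4.3.3 (filterByExpr, TMM, quasi-likelihood F test on 4 groups, Benjamini-Hochberg over 19768 genes). The installed version runs its legacy quasi-likelihood method by default, so the alternative planned under that name is the same fit. The newer method was added after the data were seen, as were library sizes from all genes. Spread is measured by the 4-hour pair alone (1 residual degree of freedom), so that all other libraries were assumed to vary like this pair. A prior count of 2 was used for log2 fold changes, and each SE is the unshrunk coefficient over the root of F. Also run were DESeq2 1.42.0, scaling by median-of-ratios factors, by library size alone or by TMM leaving out mitochondrial and the 50 most abundant genes, limma-voom (limma 3.58.1), robust empirical Bayes, no filter, at least 10 counts in every library, each 4 h library left out, a prior count of 0.125 and shares of raw reads. The steps were tested on simulated data with a smaller dispersion than the 0.056 fitted here, which does not measure their power in these data.

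The members and lists were chosen with earlier results of these data known. Named are the GABA-A subunit genes (some of the family are not reported here), all 8 immediate early genes, marker lists as sums with their most abundant gene, of the receptor partners and of the synthesis, transport and chloride list each called gene and the 3 largest rises and falls at 4 h, and the 5 genes nearest in profile to the member of widest range.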

Additional observations from a re-analysis of the deposited data

Results flagged for a closer look

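Reads on no gene, which no comparison used, made up a larger share than the 24.7% of the control in every kainic acid library, with 29.0% in the 1-hour library, 33.1% in 4-hour library 1, 25.3% in 4-hour library 2 and 30.9% in the 8-hour library.

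For some members the libraries of different times lay on opposite sides of the control, and the difference between the 1-hour and 8-hour libraries was not tested. Those between the 4-hour pair and the other times did not pass the threshold of 0.05 after adjustment in edgeR with its filter on low counts. Without that filter Gabra4 and Gabra2 passed it both for 4 h versus 1 h and for 8 h versus 4 h, and DESeq2 called Gabra4 in the latter. Gabra4 had a log2 fold change of 1.04 at 4 h, 0.099 at 1 h and -0.014 at 8 h. Gabra2 had -0.0092 at 1 h, 0.78 at 4 h and 0.021 at 8 h. Gabra5 had 0.019 at 1 h, -0.34 at 4 h and -0.58 at 8 h. Gabrb1 had -0.13 at 1 h, -0.16 at 4 h and 0.068 at 8 h, and Gabrb2 had 0.0064 at 1 h and -0.28 at 8 h. Several of these values are smaller than their SE.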

How the results depend on the processing

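The counts of genes called rest on the settings, and the cause was not tested. With TMM and edgeR they were 0 at 1 h, 1 at 4 h and 0 at 8 h versus control, 1 for 4 h versus 1 h, 0 for 8 h versus 4 h and 2 in the joint test. In the same order, DESeq2 called 56, 238, 33, 109, 129 and 303 genes, library size alone 57, 237, 22, 67, 120 and 338, and no filter on low counts 285, 1300, 279, 725, 957 and 1761. limma-voom and median-of-ratios factors called 0 genes in each. With at least 10 counts in every library 1 gene was called at 1 h and 0 at 4 h, for 4 h versus 1 h and in the joint test. Robust empirical Bayes called 1 gene at 1 h, and the newer quasi-likelihood method called 0 for 4 h versus 1 h.

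Of 420 fold changes of members under settings with a test, 407 kept their direction and their side of the threshold, 8 came past it (Gabra4 and Gabra2, under DESeq2 or without a filter) and 5 turned, all of them small. With library size alone the log2 fold change at 1 h was -0.067 for Gabrb2 and -0.054 for Gabra5, and that of Gabra4 at 8 h was 0.0047. The latter was 0.011 with at least 10 counts in every library, and limma-voom gave -0.022 for Gabrd at 4 h. Library size alone moved the median of all genes by -0.12 at 4 h versus control and 0.14 for 8 h versus 4 h. Without either library at 4 h no residual degree of freedom is left, so these values have no test. Gabrd at 4 h was -0.72 without 4-hour library 1 and 0.73 without 4-hour library 2. Without 4-hour library 1, Gabrd also turned for 4 h versus 1 h (0.26 to -0.63) and for 8 h versus 4 h (-0.71 to 0.18). Without 4-hour library 2, Gabrb2 turned for 4 h versus control (-0.09 to 0.08) and for 4 h versus 1 h (-0.10 to 0.07). Gabrb1 for 4 h versus 1 h was -0.026 in the main fit and at most 0.015 over all settings. Shares of raw reads differed from shares per kb by more than the counting interval in 34 of 35 cases. No paired analysis was possible because only the 4 h group has more than 1 library. Gabra6, Gabre, Gabrp, Gabrr1 and Gabrr3, with at most 6 counts in a library, did not pass the filter and had no test in the main fit. The part of depth in their low counts was not tested.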
